A study of Mus musculus with 5 samples.

Results

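Cytoplasmic ribosomal protein genes encode the protein parts of the ribosome outside mitochondria. They were taken here as the genes whose symbol is Rpl or Rps with a number and at most 1 letter, together with Rplp0, Rplp1, Rplp2 and Rpsa. Their FPKM (fragments per kilobase of transcript, scaled to the number of mapped fragments) also had to be at least 1 in all 5 libraries. Of 80 genes with such a name, 77 met that level, 45 of the large and 32 of the small subunit, among 11296 genes tested. The excluded genes were Rpl3l and Rpl10l, listed at 0 in every library, and Rpl39l, just outside the level with FPKM of 0.849, 2.41, 4.81, 1.53 and 1.81. Of the members, Rps27l had the lowest values, and Rpl13 was not analysed here.

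The libraries came from CD4+YFP+ regulatory T (Treg) cells, T cells marked by the transcription factor Foxp3 that restrain immune responses, sorted from C57BL/6 mice. The 4 groups were wild type at 21 days (WT at 21 days, 1 library), wild type at 6 weeks (WT at 6 weeks, 1 library), malt1fl/fl mice at 21 days, in which the labels give Malt1 as deleted in Treg cells (the library labelled KO, 1 library), and malt1fl/C472A mice at 6 weeks, in which the labels give its protease activity as inhibited (KI, 2 libraries). All groups, controls included, carry Foxp3-driven Cre with YFP, so both the Cre and the sort follow Foxp3. The labels do not say that the libraries are from separate animals, so the spread of the KI pair may be technical. Values in 5 libraries are given in the order WT at 21 days, WT at 6 weeks, KO, KI replicate 1 and KI replicate 2. They are scaled FPKM, the deposited FPKM divided by a factor per library that aligns the bulk of genes, and a difference between libraries is one of log2(scaled FPKM + 1).

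Each ribosome needs most of its proteins in equal numbers, and their genes are among the most highly expressed in dividing cells. Many ribosomal protein messages begin with a run of pyrimidines right at the cap, the terminal oligopyrimidine tract, through which the growth kinase mTORC1 and its partner Larp1 control their translation. T cells raise ribosome production when antigen activates them, and Myc and mTORC1 take part in that step. Malt1 is a scaffold and protease that links the antigen receptor to NF-kB.

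The start regions of 8 members are shown, because runs of pyrimidines near the start were found more often in members than in all genes. These genes include members lower and members higher in WT at 6 weeks than in WT at 21 days. RefSeq starts (GRCm38.p6) were matched for 56 of 77 members. The sequences run 5′ to 3′ on the gene's strand, and capitals mark the longest run of C or T that begins with C within 25 bases before or after the start. Not every matched member with such a run was considered for printing. Of those considered, the first 4 had the lowest WT at 6 weeks against WT at 21 days with pseudogene entries added (described further on). The other 4 had the highest.
Rpl38, chr11:114668572-114668601, + strand: gcctcgttCTTTCCCCgttctcttcggttc
Rpl7a, chr2:26910787-26910816, + strand: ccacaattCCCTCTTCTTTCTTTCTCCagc
Rpl14, chr9:120571501-120571530, + strand: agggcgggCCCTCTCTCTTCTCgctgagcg
Rps15a, chr7:118116141-118116170, - strand: ccggcccaCTCTCTTTCTgccatcttccct
Rpl13a, chr7:45128722-45128751, - strand: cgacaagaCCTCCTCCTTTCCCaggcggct
Rplp2, chr7:141447639-141447668, + strand: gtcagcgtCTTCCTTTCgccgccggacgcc
Rpl11, chr4:136053358-136053387, - strand: ccggaagtCTCCCTCTCTCttcctgttctc
Rps27, chr3:90213629-90213658, - strand: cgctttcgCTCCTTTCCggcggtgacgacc
The runs lie near the annotated start and not always at it, and in Rpl11 the letters C and T go on past the window in which runs were sought.

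A run of at least 8 C or T letters beginning with C, within 25 bases before or after the start, was found in 30 of 56 members (53.6%), against 17.7% of the 27025 genes of the RefSeq table. Among motifs of transcription factors, searched on both strands of 300 bases (250 before to 50 after the start), the ETS core CCGGAAG was in 42.9% of members and 9.93% of all genes. The SP1 core GGGCGG was in 60.7% and 38.2%, and the YY1 core AAGATGGC in 8.93% and 3.19%. These are matches of letters, not binding sites. Members with and without such a run had medians of -0.41 and -0.23 in KI against WT at 6 weeks, 0.22 and 0.16 in KO against WT at 21 days, and 0.08 and -0.05 between the WT libraries, where with pseudogene entries added they had -0.05 and -0.10. In each of these comparisons the ranges between the quartiles overlapped.

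The members held a large share of each library. Their summed FPKM made up 24.1%, 26.0%, 27.9%, 23.7% and 19.7% of that of all protein-coding genes. The library labelled KO had the highest share and KI replicate 2 the lowest, and both KI libraries lay below both WT libraries. The large subunit held 12.3%, 13.5%, 14.8%, 12.1% and 10.1%, and the small subunit 11.8%, 12.5%, 13.1%, 11.5% and 9.55%. Without the mitochondrially encoded genes in the denominator the members' shares were 26.9%, 27.1%, 28.9%, 25.6% and 20.8%, in which the WT libraries came close to each other. In sorted cells measured in bulk, fewer cells of a type and less RNA per cell cannot be told apart.

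**Figure D1:**
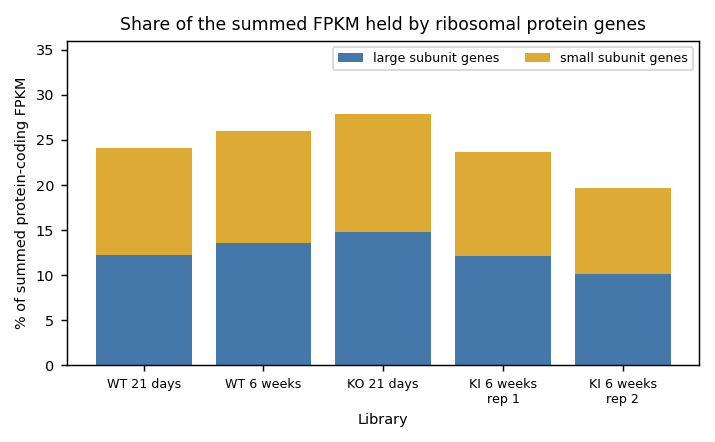
Percent of the summed protein-coding FPKM held by the 45 large subunit and 32 small subunit genes, stacked, in each of the 5 libraries (1 bar per library, no error bars). The total runs from 19.7% in KI replicate 2 to 27.9% in the library labelled KO, and both subunits have the same highest and lowest library.

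The libraries differed in more than genotype and age. The bounds deposited with the FPKM imply roughly 20.6 M, 4.92 M, 5.65 M, 17.5 M and 17.4 M fragments (M for mega), and mitochondrially encoded genes held 10.3%, 3.9%, 3.43%, 7.76% and 5.33% of the coding FPKM. WT at 6 weeks and KO thus stood apart from the other 3 libraries in both. The bounds of members lay a median of 4.2% to 4.55% from the value in each library, at most 16.1%, and cover counting and assignment error only. Malt1 had 27.0, 15.2, 17.6, 55.9 and 37.8, so KO lay between the WT libraries. A value summed over a gene need not fall when some exons are deleted, so it does not check the label. All 7 Treg markers were present, with summed values of 1073, 838, 780, 1047 and 1058, but the sum joins genes that differed in opposite directions. Foxp3 had 70.7, 39.5, 30.5, 70.1 and 73.6, and Ikzf2 had 68.0, 36.3, 15.35, 62.6 and 103.6. Ctla4 had 395.5, 147.5, 118.1, 412.2 and 245.5. These genes and Il2ra were lower in WT at 6 weeks and KO than in the other 3 libraries. Cd4 (165.0, 197.0, 213.1, 137.2 and 140.9) and Cd3e were higher there, and Tnfrsf18 was more even. The summed markers of B cells (5 genes) were 17.3, 42.8, 10.9, 4.75 and 3.15, and those of myeloid cells (6 genes) 35.5, 134.7, 58.3, 49.2 and 30.6. Both were highest in WT at 6 weeks. The summed markers of plasmacytoid dendritic cells (4 genes) were 11.1, 35.5, 5.93, 1.82 and 1.95, and of erythroid cells and platelets (5 genes) 6.35, 51.6, 1.86, 27.7 and 3.56. The 3 plasma cell markers summed to between 34.8 and 64.7, the 3 NK cell markers to between 1.64 and 16.9, and the 4 of CD8 T cells and thymocytes to between 5.88 and 14.1. The thymocyte gene Rag1 was at or near 0 in all 5 libraries, as was the platelet gene Pf4 in all but KI replicate 1. The part that these cells or the depth have in the differences below was not tested.

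Levels per transcript length spanned a wide range among members, although most of their products are needed in equal numbers. The median over the 77 genes was 986, 1018, 1118, 901 and 701 scaled FPKM. Rps24 was the highest, with 3637, 3298, 3193, 2914 and 2112, followed by Rplp1 and Rps29. The lowest were Rps27l, a paralog of Rps27, with 45.0, 58.6, 73.2, 47.0 and 71.2, then Rpl21 and Rpl7a. The order of the genes by level was much alike in all libraries. Pearson's r between libraries, over the log2 values of 77 genes that share gene lengths and annotation, was between 0.862 and 0.982.

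**Figure D2:**
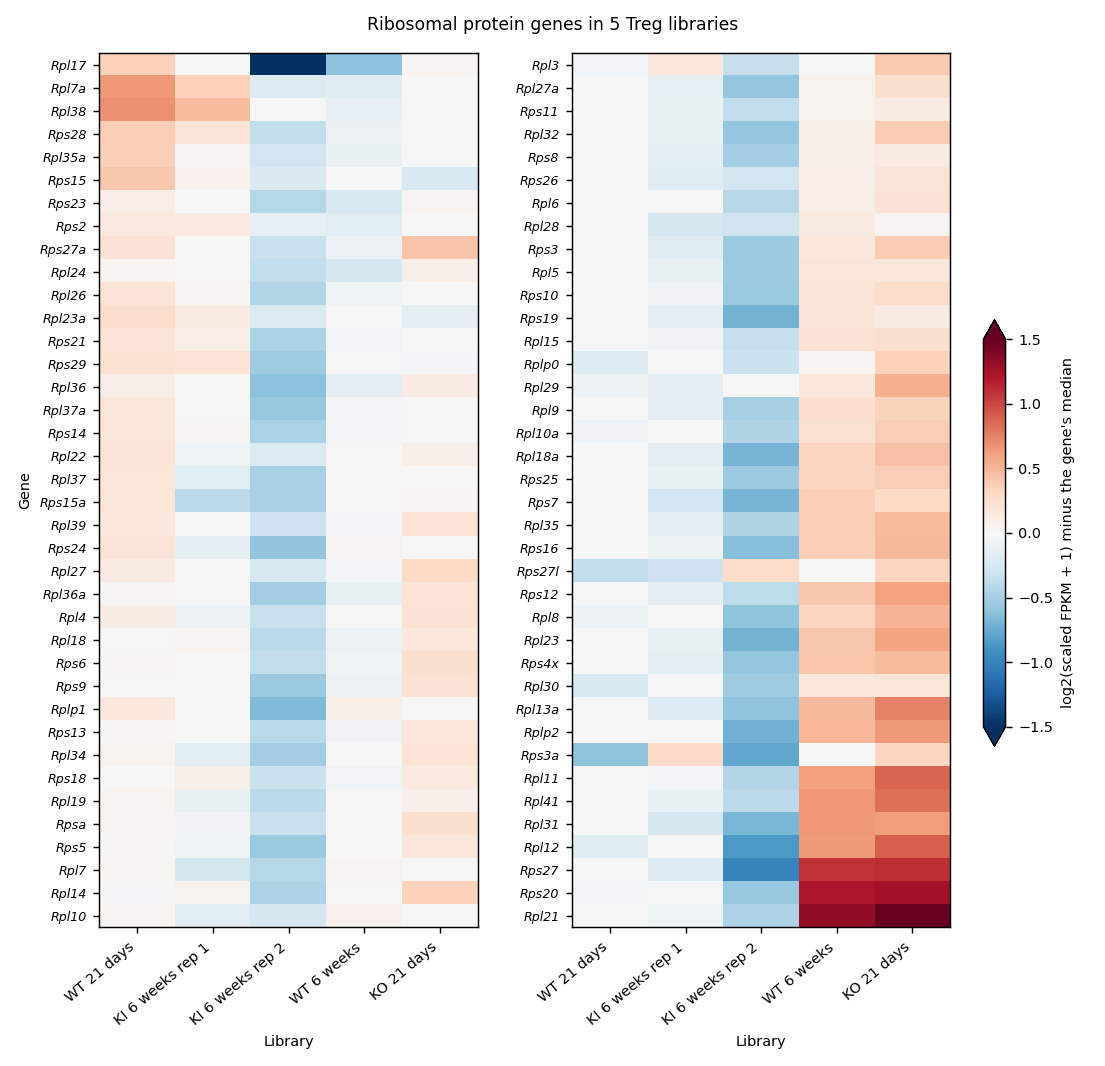
Each row is a gene (76 of the 77 are drawn) and each column 1 library. Color gives log2(scaled FPKM + 1) minus the gene's median over the 5 libraries, with values past 1.5 in either direction shown in the end color (Rpl17 in KI replicate 2 and Rpl21 at KO reach it). KI replicate 2 is the lowest library for 72 of all 77 genes (20.3% of all genes tested), and WT at 6 weeks and KO share high values in Rpl21, Rps20 and Rps27.

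In the KI cells the members were lower on balance than in WT cells of the same age, by an amount that differed between the KI libraries. The median difference from WT at 6 weeks was -0.17 for the first KI library, with 49 of 77 genes lower (background 50.1%), and -0.52 for the second, with 74 lower (background 50.6%). It was -0.31 for their mean, beside -0.00 over all genes tested. The 413 other genes with a mean of at least 100 scaled FPKM were also lower on balance. Their medians were -0.12 for the first KI library, -0.13 for the second and -0.13 for the mean. Of these other genes, 59.3% were lower in the first KI library and 57.9% in the second. Of the 77, 48 were lower than WT at 6 weeks in both KI libraries, where 38.0% of all genes tested were, and 45.0% of these other highly expressed genes. Only Rpl38 and Rps2 were higher in both (background 36.6%), and with FPKM as deposited the KI mean of Rps2 lay at -0.12. Large and small subunit genes had close medians for the KI mean, -0.32 and -0.30. With FPKM as deposited, 73 of 77 were lower in both, while the median of all genes tested itself lay at -0.26.

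No member passed the test. In limma on KI against WT at 6 weeks, 1 of 11296 genes passed the threshold of an adjusted p of 0.05 (0.00885%), and the members' adjusted p lay between 0.398 and 1. At an unadjusted p under 0.05 there were 2 members, Rpl21 and Rps20, both lower (background 4.97%, and 5.75% for genes that were higher). The standard errors of the members' differences had a median of 0.51 and ran from 0.32 to 0.91. The test has 1 residual degree of freedom, and the spread of the KI pair also stands in for that of WT.

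The count past 1.5-fold was close to the background. Lower than WT at 6 weeks by more than 1.5-fold in both KI libraries were 9 members, where 7.87% of all genes tested and 7.02% of other highly expressed genes were. They were Rpl11, Rpl12, Rpl13a, Rpl21, Rpl31, Rpl41, Rps7, Rps20 and Rps27, with Rps7 named after its values were seen. No member was that much higher in both (background 9.51%). Past 2-fold there were 3, Rpl21, Rps20 and Rps27 (background 2.8%).

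Rpl21 (ENSMUSG00000041453, chromosome 5, 146832890 to 146837032, GRCm38), a large subunit protein, had 157.9, 399.7, 497, 151 and 113.9. WT at 6 weeks and KO were high and the other 3 libraries low, with no overlap. The KI mean was 132.4 ± 26.2 (SD, n = 2), a difference of -1.60 (SE 0.32, limma adjusted p = 0.398). Rps20 (ENSMUSG00000028234, chromosome 4, 3831334 to 3835665), a small subunit protein, had 464.9, 1105, 1136, 475.3 and 320.6, with the same split. Its difference in KI was -1.5 (SE 0.46, limma adjusted p = 0.460). Rps27 (ENSMUSG00000090733, chromosome 3, 90212725 to 90213615), a zinc finger protein of the small subunit, had 864.5, 1838, 1869, 753.9 and 430.9. Its difference in KI was -1.69 (SE 0.59, limma adjusted p = 0.473), the lowest of all members. In these 3 genes WT at 21 days lay near KI replicate 1, so the size of the difference depended on which WT library was the control.

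Against WT at 21 days, whose depth was close to that of the KI libraries but whose age was not theirs, the members were lower by a like amount and more evenly. KI replicate 1 was lower for 64 of 77 (background 49.7%, other highly expressed genes 66.1%). The median was -0.12, beside -0.13 over the other highly expressed genes, so in size this shift was not particular to the members. KI replicate 2 was lower for 75 (background 49.1%, other highly expressed genes 63.9%). Its median was -0.54, beside -0.13 over the other highly expressed genes. Both were lower for 63 (background 28.5%, and 45.0% of other highly expressed genes). None was lower by 1.5-fold in both (background 2.28%). The SD of the members' differences was 0.18 for KI replicate 1 and 0.29 for replicate 2 here, against 0.38 and 0.43 when WT at 6 weeks was the control. Both KI libraries lay below both WT libraries for 41 members (background 16.8%, other highly expressed genes 27.4%). With both WT libraries as the control, limma called no member, and their adjusted p was at least 0.930.

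The KI libraries also differed from each other. KI replicate 2 was below replicate 1 for 75 of 77 members (background 49.0%), with a median of -0.41, beside 0.00 over all genes tested and -0.02 over the other highly expressed genes. The exceptions were Rps27l and Rpl29, with Rpl29 named after its values were seen. Past 1.5-fold there were 10 members (background 11.9%). Rpl17 had the widest gap, with 849.5, 438.5, 687.6, 670 and 190.9, so KI replicate 2 was far below the other 4 libraries. Rps3a, named after its values were seen, had the next, -1.06, which was -0.41 with pseudogene entries added. KI replicate 2 was the lowest of the 5 libraries for 72 members (background 20.3%), and KI replicate 1 was the lowest for 1 (background 21.6%).

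**Figure D3:**
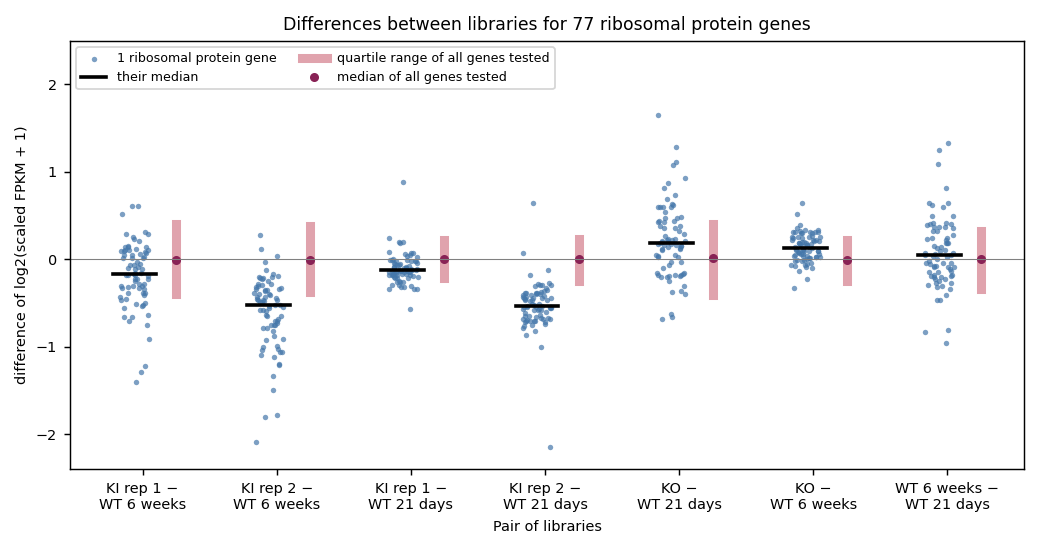
Difference of log2(scaled FPKM + 1) between pairs of libraries for each of the 77 genes (points, spread sideways for sight), with their median (black line) and, to the right, the median and the range between the quartiles of all 11296 genes tested. The members' medians are -0.17 and -0.52 for the KI libraries against WT at 6 weeks and 0.19 for KO against WT at 21 days, and the points spread less where KI is set against WT at 21 days or KO against WT at 6 weeks.

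The stalk of the large subunit, which recruits the elongation factors, is built from Rplp0, Rplp1 and Rplp2 on a base with Rpl12. Rplp0 had 1358, 1596, 1975, 1558 and 1251, and Rplp1 had 2876, 2727, 2570, 2559 and 1627. Rplp1 was within a narrow range in 4 libraries and lower in KI replicate 2. Rplp2 had 703.1, 990.9, 1092, 699.1 and 427.5, and Rpl12 had 756.9, 1335, 1599, 859.9 and 472.5. In both of these KO and WT at 6 weeks were the highest and KI replicate 2 the lowest. Their differences in KI against WT at 6 weeks were -0.19 for Rplp0, -0.42 for Rplp1, -0.86 for Rplp2 and -1.06 for Rpl12, and none passed limma's test, the lowest adjusted p being 0.566.

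Rpl5 and Rpl11 bind Mdm2 together with a ribosomal RNA and so link ribosome assembly to p53. Rpl5 had 678.3, 771.8, 765.8, 625.3 and 465.5. Rpl11 had 603.5, 926.8, 1109, 588.1 and 443.8. Both were lowest in KI replicate 2, but only Rpl11 set KO and WT at 6 weeks far from WT at 21 days, by 0.88 and 0.62, beside 0.17 and 0.19 for Rpl5, which turned to -0.13 and -0.16 with pseudogene entries added. Rpl22, whose loss blocks the development of alpha-beta T cells, was among the most even members, with 954.9, 836.5, 891.8, 801.7 and 723.4. Its paralog Rpl22l1, outside the name rule, had 180, 128, 85.7, 127 and 93.2, highest in WT at 21 days. Rpl10 (1186, 1219, 1163, 1045 and 974.8) and Rps2 (1234, 991.3, 1111, 1232 and 1021) had the smallest ranges, 0.32 each.

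Of other large subunit members, Rpl38, which favors translation of homeobox messages in embryos, went the other way from Rpl21. It had 1437, 820.3, 896.6, 1250 and 893.4, highest in WT at 21 days and lowest in WT at 6 weeks. Rpl7a had 465, 260.4, 295, 375.3 and 255.7, highest in WT at 21 days and low in WT at 6 weeks and KI replicate 2. Rpl41, a peptide of few residues, had 1717, 2687, 3036, 1601 and 1312. Rpl13a, which is released from the ribosome in the interferon-gamma response of myeloid cells, had 1828, 2571, 3056, 1581 and 1206. In these last 2 genes WT at 6 weeks and KO lay above the other 3 libraries. Rpl31 did the same, with 451.3, 707.6, 696.9, 377.6 and 280.1. Rpl3, at the peptidyl transferase center, was highest in KO, with 826, 852.6, 1118, 948.8 and 671.1. Rpl10a had 650.7, 790.3, 877.3, 676.6 and 494, and Rpl39, at the exit tunnel, had 1003, 887.9, 1039, 900.6 and 726.4, each lowest in KI replicate 2.

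In the small subunit, Rps6, the substrate of S6 kinase downstream of mTORC1, had 1304, 1230, 1526, 1290 and 997.6. Rpsa had 1170, 1140, 1347, 1100 and 900.4, and Rps3, which also binds NF-kB p65, had 715.1, 798.5, 934, 632.3 and 489.4. All of these were highest in KO and lowest in KI replicate 2, with differences of -0.12, -0.20 and -0.52 in KI against WT at 6 weeks. Rps4x, on the X chromosome, had 1356, 1809, 1892, 1234 and 909.9. Rps27a, made as a fusion with ubiquitin, had 906.5, 735.1, 1052, 782.7 and 620. Rps15 had 2755, 2082, 1783, 2172 and 1797, a case in which KO was the lowest library. The small subunit genes Rps14 and Rps19 and the large subunit gene Rpl35a are mutated or lost in human bone marrow failure. Rps19, the gene most often mutated in Diamond-Blackfan anemia, had 891.6, 1018, 969.5, 813.2 and 543.6. Rps14 had 1688, 1470, 1491, 1505 and 1074, and Rpl35a had 794.9, 578.6, 620.5, 639 and 508.5. All of these were lowest in KI replicate 2, and their differences in KI against WT at 6 weeks lay between -0.61 and -0.02.

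In the library labelled KO the members were higher on balance than in WT of the same age. They had a median difference of 0.19 from WT at 21 days, beside 0.02 over all genes tested, with 1 library in each group. No test was made for this comparison. Of the 77, 55 were higher (background 51.1%) and 22 lower (48.6%). With FPKM as deposited 4 were lower, while the median of all genes tested was 0.35. The large subunit median was 0.19 and that of the small subunit 0.17. Past 1.5-fold, 15 were higher (background 16.4%, other highly expressed genes 8.23%) and 3 lower, Rpl38, Rpl7a and Rps15 (background 18.1%). The widest differences were those of Rpl21, at 1.65, Rps20, at 1.29, Rps27, at 1.11, and Rpl12, at 1.08, the 4 past 2-fold (background 6.13%). With pseudogene entries added, Rpl21 lay at 0.28 and Rpl12 at 0.36, and the other 2 were still past 2-fold.

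Against WT at 6 weeks, which had a like depth and another age, KO was higher for 63 members (background 48.2%), with a median of 0.13, beside -0.01 over all genes tested. Rpl21, Rps20 and Rps27 lay at 0.31, 0.04 and 0.02 there. Rpl17 was the only member past 1.5-fold, at 0.65 (background 8.52%), and Rps27a followed at 0.52. With pseudogene entries added these were 0.42 and 0.30, and 0 members were past 1.5-fold. The SD over the members was 0.16, against 0.43 when WT at 21 days was the control. KO was above both WT libraries for 50 members (background 34.5%, other highly expressed genes 30.3%) and was the highest of the 5 libraries for the same number (background 24.6%). WT at 21 days was the highest for 19 (background 13.9%) and WT at 6 weeks for 8 (background 20.7%).

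The WT libraries, which share a genotype, differed from each other at these genes with little shift on balance. WT at 6 weeks was higher than WT at 21 days for 42 of 77 (background 50.9%), with a median of 0.05. With FPKM as deposited it was higher for 71, while the median of all genes tested was 0.35. Past 1.5-fold, 8 members were higher (background 11.5%), Rpl11, Rpl12, Rpl21, Rpl31, Rpl41, Rps20, Rps27 and Rps3a, and 3 lower, Rpl17, Rpl38 and Rpl7a (background 14.2%). The largest differences, 1.33 for Rpl21, 1.25 for Rps20 and 1.09 for Rps27, were those past 2-fold (background 3.38%), and they came close to the differences of KO from WT at 21 days for the same genes.

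The pattern among the members thus separated WT at 6 weeks and KO from the other 3 libraries. Pearson's r over the 77 genes was 0.982 between WT at 6 weeks and KO, and between 0.95 and 0.981 among WT at 21 days and the KI libraries. Between these sets it was 0.862 to 0.909, with 0.899 for the pair of WT libraries. In 35 members both WT at 6 weeks and KO lay above all of the other 3 libraries (background 23.6%), and in 0 both lay below (background 23.6%). Depth and the mitochondrial share, given above, split the libraries in the same way, as do Foxp3, Ikzf2 and Ctla4. The share of pseudogene entries, given below, does so too. WT at 6 weeks and KO differ from each other in age and in genotype. The part of each of these in the result was not tested.

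Most ribosomal protein genes have processed pseudogenes, copies of the message put back into the genome, and reads of gene and copy can be hard to separate. The files list such pseudogenes as entries of their own. Of these, 917 matched a member's coding transcripts at 80% identity or more over at least 50% of the pseudogene's transcript, spread over 74 members. Their summed scaled FPKM was 11909, 7797, 8306, 10148 and 8316, or 11.8%, 7.81%, 7.67%, 11.0% and 11.9% of the members and their copies together. WT at 6 weeks and KO had the lower shares.

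Adding these entries to their member, a choice made after the data were seen, removed the difference between the WT libraries for some genes and not for others. Rpl21 has 65 matched entries, with 483, 266, 281, 414 and 321 in sum. Together with them it had 641, 666, 778, 565 and 435, and its difference between the WT libraries went from 1.33 to 0.06. Rpl12 (14 entries) went from 0.82 to 0.13, Rpl31 (24 entries) from 0.65 to 0.06, and Rps3a (5 entries) from 0.61 to 0.09. In each of these 4 genes WT at 6 weeks was higher than WT at 21 days in the gene itself and lower in the summed copies. Rps20, with 1 entry at 0 in every library, kept 1.25, and Rpl41, with 4 entries at 0, kept 0.65. Rps27 kept 1.09, since its 7 entries summed to at most 1.97. The coding retrogene of Rps27, listed as Gm9846 and not counted as a pseudogene, had 484, 662, 529, 353 and 378. Of the 11 members past 1.5-fold between the WT libraries, 6 were past it with the copies added.

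**Figure D4:**
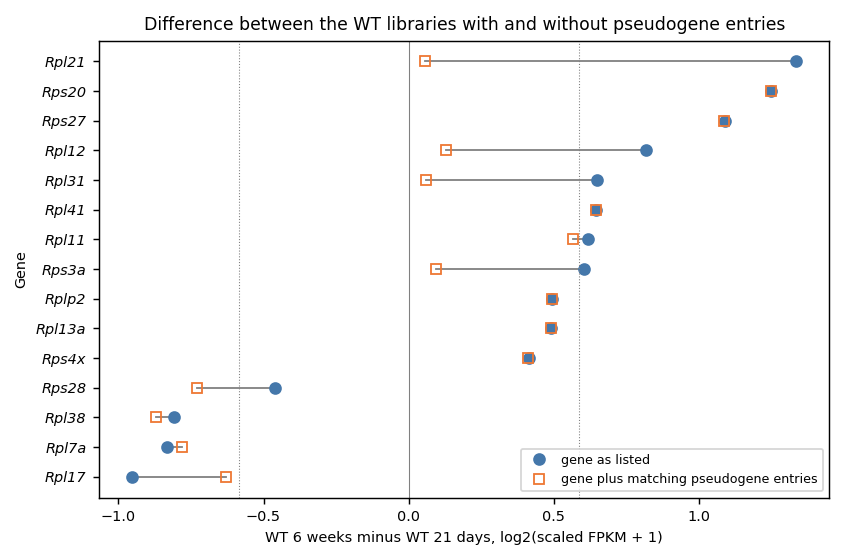
Difference between WT at 6 weeks and WT at 21 days, log2(scaled FPKM + 1), for 15 genes as listed (filled circles) and with the FPKM of matching pseudogene entries added (open squares). Dotted lines mark 1.5-fold. Rpl21, Rpl12, Rpl31 and Rps3a move to near 0, while Rps20, Rps27 and Rpl41 stay where they were and Rps28 goes from -0.46 to -0.73.

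With the copies added, the median between the WT libraries went from 0.05 to -0.03, and WT at 6 weeks was higher for 36 members in place of 42. The KI mean of Rpl17 against WT at 6 weeks went from -0.29 to 0.14, and that of Rps3a against WT at 21 days from 0.36 to -0.41. In KI, 47 members were lower than WT at 6 weeks in both libraries, 5 past 1.5-fold and 2, Rps20 and Rps27, past 2-fold. Without the copies these counts were 48, 9 and 3. Rpl21 in KI then lay at -0.43 and Rpl12 at -0.42. KI replicate 2 was below replicate 1 for 76 members, with a median of -0.41, and the gap of Rpl17 shrank from -1.81 to -0.47. Both KI libraries were below both WT libraries for 41, as before. KO was above both WT libraries for 46, and above WT at 21 days for 48, of which 10 were past 1.5-fold. Transcript length was weakly related to the differences, with Spearman's rho over the 77 genes between -0.13 and 0.26 in all comparisons, a description only.

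The gene most like the members over the 5 libraries was another ribosome component. Among 5366 other genes with a mean of at least 10 scaled FPKM, ranked by Pearson's r with the members' mean log2 value over 5 libraries, Gnb2l1 came first (r = 0.997). It encodes Rack1, a scaffold on the small subunit, and had 821, 896, 1006, 790 and 585. Acbd6, Sdhaf1, the processed pseudogene Gm10288 and Mrpl9, a mitochondrial ribosomal protein, followed with r of 0.996, 0.988, 0.986 and 0.986. With 5 points and this many candidates, r is given as a description.

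Ribosomal proteins that the name rule misses (7 genes tested) had medians of -0.50 and -0.61 in the KI replicates against WT at 6 weeks, and 6 of 7 were lower in both (background 38.0%). Fau, a fusion that yields a small subunit protein, had 1008, 1249, 1332, 882 and 636. Rpl36al went the other way, with 322 and 317 in KI against 255 in WT at 6 weeks. The list of translation elongation factors (8 genes) also holds Tpt1 and Eef1e1, which are not elongation factors themselves. Its messages also carry the pyrimidine tract in many cases. The list had medians of -0.35 and -0.54, with 6 of 8 lower in both (background 38.0%). In KO against WT at 21 days its median was 0.41. Eef1a1 had 4584, 5102, 6133, 4218 and 3664, and Eef2 had 964, 980.3, 1275, 1007 and 797, so KO was the highest and KI replicate 2 the lowest in both.

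Other parts of the translation machinery had smaller or mixed differences. Translation initiation factors (36 genes) had medians of -0.03 and -0.13 in the KI replicates and 0.15 in KO against WT at 21 days. Ribosome biogenesis factors (40 genes) had 0.06 and -0.20 in KI, with 12 lower in both (background 38.0%), and 0.32 in KO, with 33 higher (background 51.1%). RNA polymerase I genes (14 genes) had -0.16 and -0.37 in KI and 0.10 in KO. Host genes of small nucleolar RNAs, several of which also carry the tract (8 genes tested), differed between the KI replicates, at 0.43 and -0.49, and had 0.67 in KO. The mTORC1 and Myc list (17 genes) had -0.02 and -0.04 in KI and -0.09 in KO, which was 0.25 with FPKM as deposited. It joins activators with inhibitors such as Tsc1, Eif4ebp1 and Mxd1, so its median gives no direction for the pathway. For the KI mean against WT at 6 weeks, 8 of its genes were higher and 9 lower. Eif4ebp1 had 5.83, 5.75, 5.46, 1.89 and 2.01, and Mxd1 had 17.6, 12.5, 12.1, 33.3 and 22.8. Myc itself had 36.9, 43.1, 43.5, 23.2 and 39.3, and so was lowest in KI replicate 1, not in replicate 2, where the members were lowest.

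Mitochondrial ribosomal proteins (76 genes), which build the separate ribosome of mitochondria, had medians of -0.54 and -0.39 in the KI replicates against WT at 6 weeks, with 59 lower in both (background 38.0%). Against WT at 21 days the KI mean had -0.07, where the cytoplasmic genes had -0.32. Their median was 0.34 between the WT libraries, 0.43 in KO against WT at 21 days and 0.05 in KO against WT at 6 weeks, so these genes followed the 2 sets of libraries. KI replicate 2 was above replicate 1 for them, with a median of 0.24, where the cytoplasmic genes had -0.41. The mitochondrially encoded proteins (13 genes) had 1.13 and 0.25 in KI, -1.65 in KO against WT at 21 days and -1.49 between the WT libraries. No gene of any of these lists passed limma's test in KI against WT at 6 weeks.

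**Figure D5:**
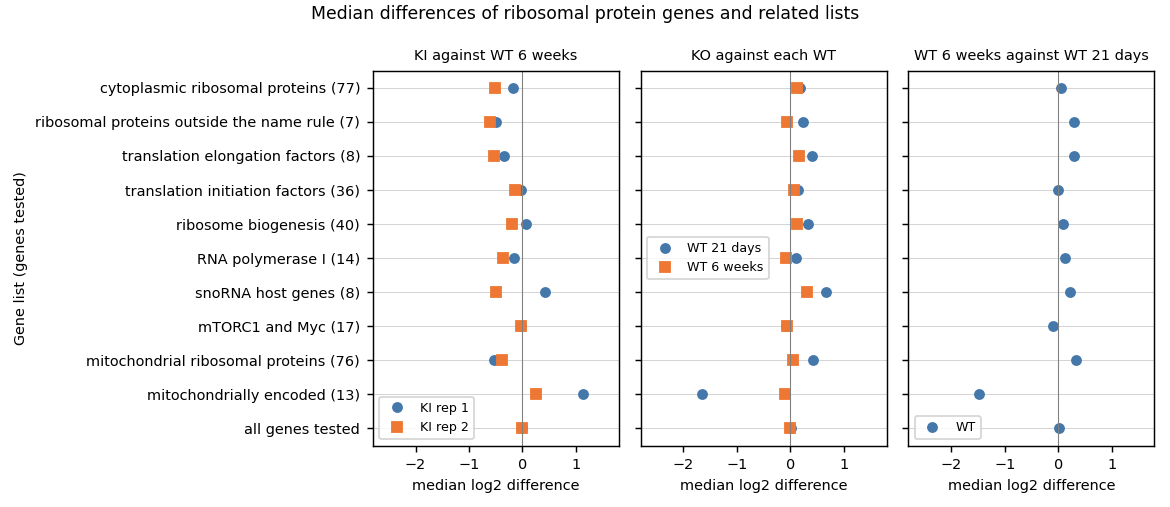
Median difference of log2(scaled FPKM + 1) for the 77 cytoplasmic ribosomal protein genes, related gene lists (genes tested in parentheses) and all genes tested, in KI against WT at 6 weeks (each replicate), KO against each WT library and between the WT libraries. Cytoplasmic ribosomal proteins, the list of elongation factors and ribosomal proteins outside the name rule lie below 0 in both KI replicates. So do mitochondrial ribosomal proteins (-0.54 and -0.39) and RNA polymerase I genes (-0.16 and -0.37). Initiation factors (-0.03 and -0.13) and the mTORC1 and Myc list (-0.02 and -0.04) also lie below 0, by less. Mitochondrially encoded genes lie at -1.65 in KO and -1.49 in WT at 6 weeks against WT at 21 days.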

How the data were processed

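RNA of sorted Treg cells was extracted with Trizol and sequenced on the Illumina platform, 5 libraries in 4 groups, per the labels' protocols. The submitters' processing notes name CASAVA, HISAT2 2.1.0, Cufflinks 2.2.1 and the build GRCm38, without roles or settings. Per the file headers, the authors deposited FPKM for each gene, with a lower and an upper bound. Strand, read type and annotation release were not given in the sources used, so reads of overlapping or antisense genes, and of pseudogenes, may be shared. Starts in the files are counted from 0, and 1 was added.

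Scaled FPKM are FPKM over a library factor (0.876, 1.15, 1.15, 0.868 and 1.01), the median of ratios to the geometric mean for 9874 genes that reach an FPKM of 1 in every library. A pseudocount of 1 was added before taking log2, so low genes differ by less than their ratio. Tests covered the 11296 genes whose scaled FPKM averaged 1 or more. For KI against WT at 6 weeks, limma 3.58.1 in R 4.3.3 was run with trend and two-sided p-values, Benjamini-Hochberg adjusted over these genes, with a threshold of 0.05. The fit was run on simulated data with the same SD for every gene, which does not give its error rate in the real libraries. Since the files hold no counts, depth is an approximate estimate from the bounds of coding genes at FPKM 1 to 10 with transcripts of 2000 bases or more. Gene types and transcript lengths came from GENCODE M21, and pseudogene transcripts were matched to members' coding transcripts with blastn 2.17.0. Promoter sequences are from RefSeq. Where a group has 1 library, members were counted by direction and by 1.5-fold and 2-fold.

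The members, lists and tests were chosen with earlier results of these data known. Members named with values were those with a role listed by hand, the 3 highest and lowest in level, the 4 highest and lowest in each comparison, paralogs ending in l, the 3 with the largest and the 3 with the smallest range, and the 5 other genes most like the members' mean. The alternatives were other scalings, another pseudocount, other controls, KI libraries left out, other filters, other fits, and, chosen after the data were seen, pseudogene entries added. Some genes that this rule or the lists name are not reported here, though they are in the counts and medians.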

Additional observations from a re-analysis of the deposited data

How the results depend on the processing

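The medians over the members kept their direction under every alternative run, except that the median between the WT libraries went from 0.05 to -0.03 with pseudogene entries added. The choice that moved most was FPKM as deposited, where the medians were -0.61 in KI against WT at 6 weeks, 0.57 in KO against WT at 21 days and 0.44 between the WT libraries. The counts there were 73 lower in both KI libraries, 4 lower in KO and 71 higher in WT at 6 weeks. The subunit medians were -0.61, 0.57 and 0.44 for the large and -0.60, 0.56 and 0.41 for the small subunit. By the construction of that alternative the medians of all genes tested moved too, to -0.26, 0.35 and 0.35. Leaving out each KI library gave medians from -0.52 to -0.17 and counts of lower members from 49 to 74, so KI replicate 2 sets the higher end. With WT at 6 weeks as its control, KO had 14 members lower. The genes called by limma numbered 1, and 1961 without a filter on low values (3 of them members), where limma reported variances of 0, 15 among coding genes only, 50 with a pseudocount of 0.1 and 0 without trend. With FPKM as deposited, all 5 libraries in one fit or both WT libraries as the control, limma called 1 gene. Apart from the fit without a filter, no setting called a member. Over all entries the members' share in KO was 24.97%. For the named genes, 71 of 111 differences moved by more than the SD of the KI medians with FPKM as deposited, 12 with pseudogene entries added and 0 with the other scalings or pseudocount. No paired analysis was possible because the groups share only 1 replicate number. A limma fit without a KI library was not run, since no residual degree of freedom is left. Depth cannot be read from FPKM, and with 1 library for each WT and for KO no difference between these has an error over animals.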
